A study of Homo sapiens with 6 samples.

Results

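The extracellular matrix genes of PC9OR cells were examined after knockdown of GLMP. The set held 42 genes for collagens, laminins, matrix glycoproteins, crosslinking enzymes, and metalloproteinases with their inhibitors. They were chosen by gene symbol, and all 42 were found among the 60664 genes of the count table. PC9OR is labelled a lung cancer cell line, and PC9 itself is a human lung adenocarcinoma line whose EGFR carries an activating deletion. Resistance to EGFR inhibitors is the study's subject, per its title. One group was 3 control libraries labelled NC and the other was 3 libraries labelled si-GLMP, in which GLMP, a glycosylated lysosomal membrane protein, was knocked down. All came from the same line, and the labels name no drug, dose, time or siRNA sequence. Nothing in the labels says that the 3 libraries of a group were separate cultures, so each p-value below reflects scatter among these libraries only, possibly of technical origin.

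The extracellular matrix is the protein scaffold that cells secrete and attach to. Epithelial cells rest on a basement membrane, a sheet of laminin and collagen IV networks bridged by nidogen, perlecan and agrin. Collagens are triple helices of chains that are matched inside the cell, so the supply of each chain matters for what can be assembled. Lysyl oxidases and transglutaminases then join the secreted proteins by covalent bonds, and metalloproteinases cut them. Epithelial cells make many basement membrane proteins themselves, while fibroblasts supply most of the fibrillar collagen of the tissue.

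Knockdown was visible in every si-GLMP library. GLMP was at 15.5, 16.8 and 15.4 CPM in NC replicates 1 to 3 and at 4.01, 2.88 and 3.15 CPM in si-GLMP replicates 1 to 3. CPM here are counts relative to library size, scaled by TMM (trimmed mean of M values). Library totals ran from 19896875 to 22372878 counts. Markers of other cell types were low, where 3 counts, the floor of a single gene, correspond to 0.133 to 0.151 CPM. The 10 fibroblast markers summed to 2.86 to 3.11 CPM in NC against 2.26 to 3.0 CPM in si-GLMP, with POSTN and TCF21 at 0 counts in each library. The 6 endothelial markers summed to 5.12 to 7.73 and 6.88 to 7.69 CPM, and the 6 leukocyte markers to 0.881 to 1.33 and 0.630 to 1.17 CPM. The 9 epithelial and lung cancer markers summed to 11470 to 11800 CPM in NC against 10470 to 11490 CPM in si-GLMP. Of these, 3 of 8 tested were called higher and 2 lower, 62.5% called against 23.3% of all genes tested. The lung lineage factor NKX2-1, however, had only 8 counts summed over NC and 0 over si-GLMP.

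Matrix genes moved in both directions after GLMP knockdown, with the crosslinker TGM2, fibronectin, thrombospondin 1 and the laminin chain LAMA3 lower and the collagen chains COL4A1, COL4A6 and COL1A1 higher. COL3A1, a chain of stromal fibrils, had 0 counts in each library, which allows a level of up to 0.133 to 0.151 CPM, and the other 41 genes could be tested. At an adjusted p under 0.05 (edgeR quasi-likelihood test, Benjamini-Hochberg over all genes tested), 9 of the 41 were higher, 13 lower and 19 not called. Over all 15900 genes tested, 23.3% were called, 12.0% higher and 11.3% lower. The median log2 fold change of the 41 was -0.05, against 0.00 over all genes tested, and the median absolute log2 fold change was 0.24 against 0.18. The ranges of the groups were separate for 11 genes higher and 14 lower in si-GLMP. For comparison, groups did not overlap for 36.5% of all genes tested, 18.5% higher and 17.9% lower. In these bulk libraries, fewer cells making a transcript and less transcript per cell cannot be told apart.

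**Figure D1:**
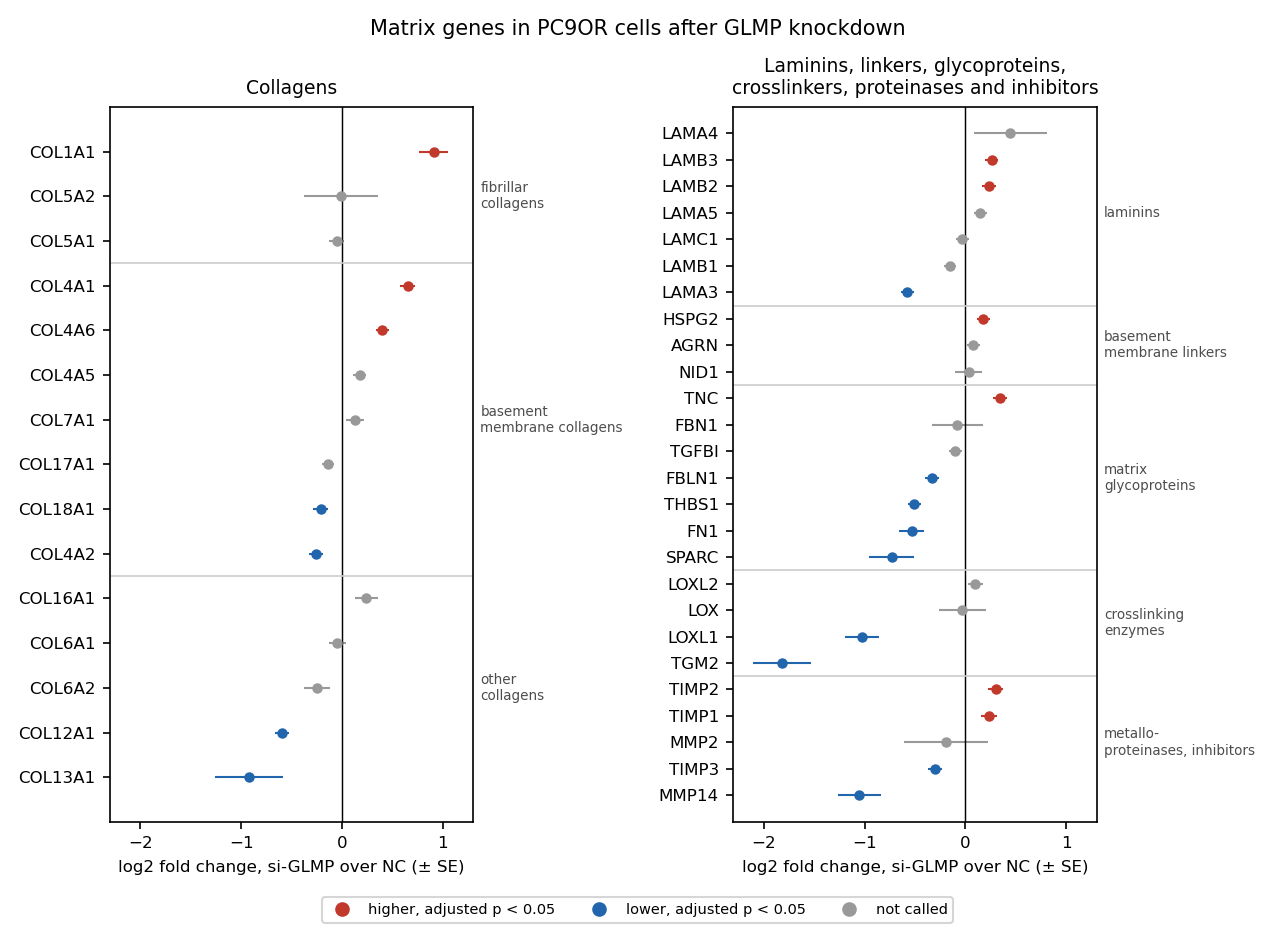
Log2 fold change (horizontal axis, si-GLMP over NC) of the 41 tested matrix genes, grouped by role, with the standard error as a bar and the colour giving the call. The 9 higher genes lie between 0.18 and 0.91 and the 13 lower ones between -1.82 and -0.21.

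Genes for a laminin chain, collagen XVII, fibronectin and transglutaminase 2 led the set by level. Per kilobase of exon, the highest NC levels were those of LAMB3 (158 ± 6.63 CPM per kb, SD, n = 3), COL17A1 (118 ± 3.42), FN1 (92.2 ± 10.4) and TGM2 (67.6 ± 3.26), in that order. AGRN, LAMA5 and LAMC1 followed at 57.6 ± 3.73, 51.3 ± 2.04 and 49.8 ± 2.60 CPM per kb, and LAMA5 and LAMC1 lay within their spread of each other. The fibrillar chains COL5A1 and COL1A1 were at 9.36 and 0.548 CPM per kb in NC, above and below the basement membrane chains COL4A1 and COL4A2 at 4.33 and 4.07. The lengths join all annotated exons of a gene, so the order between genes depends on them. In si-GLMP the first 3 kept their order, at 189, 107 and 63.7 CPM per kb, whereas TGM2 went from rank 4 to rank 18, at 19.2 ± 6.93 CPM per kb. All 42 genes together made up 0.943% to 0.981% of the scaled counts in NC and 0.811% to 0.914% in si-GLMP, groups that did not overlap. The largest falls in mean CPM were those of FN1, from 1596 to 1103, and TGM2, from 543 to 154. The summed share thus mostly follows these genes and does not describe the set as a whole.

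**Figure D2:**
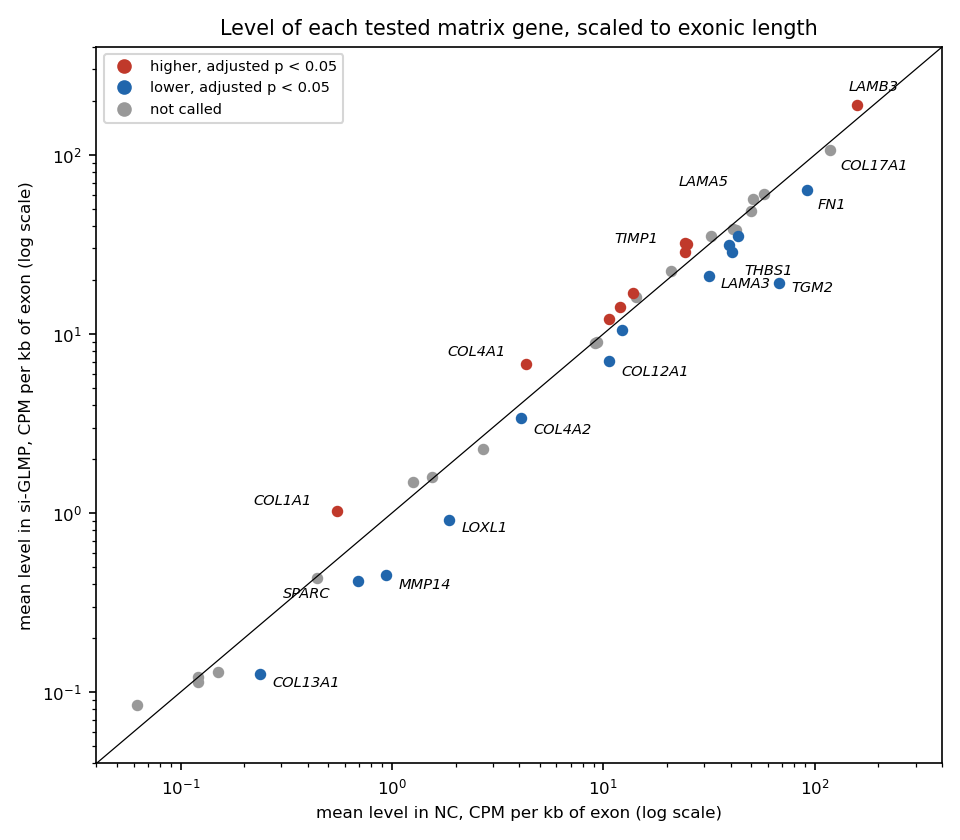
Mean level of each tested matrix gene in NC (horizontal axis) and si-GLMP (vertical axis), in CPM per kb of exon on log scales, with the diagonal marking equal levels. TGM2 lies farthest below the diagonal, at 67.6 in NC and 19.2 in si-GLMP, and COL4A1 and COL4A2 start side by side and end on opposite sides of it.

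Collagen IV is the network collagen of basement membranes, and its major form joins 2 chains from COL4A1 with 1 from COL4A2. The 2 genes lie head to head on chromosome 13 (GRCh38; COL4A1, ENSG00000187498, 110148963 to 110307233 on the minus strand; COL4A2, ENSG00000134871, 110305812 to 110513209 on the plus strand) and are known to share a promoter. The sequence between their RefSeq start sites is shown because the 2 genes moved apart. It spans the 126 bases chr13:110307158-110307283 of GRCh38.p14, plus strand, and capitals mark a CCAAT box (CCAAT) and a GC box (GGGCGG), searched on both strands. For comparison, the head-to-head pair COL4A6 and COL4A5 on chromosome X is shown over the 121 bases that the windows upstream of both starts share, chrX:108439588-108439708, plus strand, with capitals for 2 CCAAT boxes, one on each strand.

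COL4A1/COL4A2: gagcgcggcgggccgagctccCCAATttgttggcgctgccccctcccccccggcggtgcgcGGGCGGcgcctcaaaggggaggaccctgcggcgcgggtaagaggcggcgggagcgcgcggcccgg

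COL4A6/COL4A5: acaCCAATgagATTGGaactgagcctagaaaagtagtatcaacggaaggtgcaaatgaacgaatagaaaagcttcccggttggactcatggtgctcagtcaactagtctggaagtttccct

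The COL4A1/COL4A2 stretch was 80.2% G and C and the COL4A6/COL4A5 stretch 44.6%. The median over 35116 RefSeq windows, cut to those lengths next to the start, was 60.3%. A GC box was present in 34.6% and a CCAAT box in 21.1% of all windows of 126 bases next to a start, and a CCAAT box in 20.6% of those of 121 bases. The RefSeq starts of COL4A6 and COL4A5 have 379 bases between them, and the 121 bases shown touch neither start. Shares and the median next to a start therefore describe an unlike position for that stretch. GENCODE 29 places the first COL4A1 base, 110307233, within the 126 bases, and the COL4A2 gene begins before them, at 110305812. The annotated spans of the 2 genes thus overlap, and the stretch between the starts depends on the annotation.

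COL4A1 rose while COL4A2 fell. COL4A1 was at 61.3, 67.7 and 62.4 CPM in NC replicates 1 to 3 and at 94.4, 98.8 and 107.2 CPM in si-GLMP replicates 1 to 3. Every si-GLMP library was above every NC library, and the log2 fold change was 0.65 ± 0.07 (SE; edgeR's adjusted p = 3.17e-10). COL4A2 was at 80.0, 75.6 and 80.0 CPM in NC against at 68.9, 61.3 and 67.0 CPM in si-GLMP. Here every si-GLMP library was below every NC library, with a log2 fold change of -0.26 ± 0.07 (edgeR's adjusted p = 0.00625). Without NC replicate 1 the COL4A2 call was lost (log2 fold change -0.24, edgeR's adjusted p = 0.0522). Within a library, the ratio of COL4A1 to COL4A2 per kb of exon was 1.07 ± 0.0936 in NC and 2.0 ± 0.178 in si-GLMP (mean ± SD, n = 3). An exact two-sided permutation test of that ratio gave p = 0.10, the smallest that 3 against 3 libraries allow. With COL4A1 higher and COL4A2 lower in every si-GLMP library, that outcome was fixed by the levels. The exons of the 2 genes share no bases in GENCODE 29, and counts per library ran from 1220 to 2213 for COL4A1 and from 1300 to 1802 for COL4A2.

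COL4A5 and COL4A6 encode the minor collagen IV chains of epithelial basement membranes, and both had positive fold changes. COL4A6 was at 236, 211 and 233 CPM in NC against 296, 308 and 294 CPM in si-GLMP, without overlap, and rose by 0.40 ± 0.06 on the log2 scale (edgeR's adjusted p = 2.45e-06). COL4A5 was at 168 ± 10.5 CPM in NC against 190 ± 13.7 CPM in si-GLMP (mean ± SD, n = 3), with 1 si-GLMP library inside the NC range. Its log2 fold change of 0.17 ± 0.07 was not called (edgeR's adjusted p = 0.0529), but it passed without NC replicate 3 (adjusted p = 0.0420), without si-GLMP replicate 3 (0.0258) and under upper-quartile scaling (0.0417). The partner chains COL4A3 and COL4A4 were too low to test, with 24 and 14 counts summed over the NC libraries.

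The remaining basement membrane collagens changed little. COL17A1, the transmembrane collagen of hemidesmosomes, was at 835, 856 and 808 CPM in NC against 806, 708 and 755 CPM in si-GLMP. Its log2 fold change of -0.14 ± 0.06 was not called (edgeR's adjusted p = 0.108), although the groups did not overlap, and it passed without si-GLMP replicate 1 (-0.19, edgeR's adjusted p = 0.0314). COL7A1, the anchoring fibril collagen, was at 356 ± 54.8 and 390 ± 29.4 CPM and was not called (edgeR's adjusted p = 0.377). COL18A1, the source of endostatin, had a log2 fold change of -0.21 ± 0.07 (edgeR's adjusted p = 0.0306). Its groups overlapped, at 92.48 to 111 CPM in NC against 83.95 to 97.45 CPM in si-GLMP. Leaving out NC replicate 1 (adjusted p = 0.171) or 3 (0.223), or si-GLMP replicate 2 (0.0790) or 3 (0.229), ended the call, and 16.4% of its exonic length overlaps SLC19A1 on the other strand.

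Laminins are cross-shaped trimers of an alpha, a beta and a gamma chain. LAMA3 and LAMB3 encode an alpha and a beta chain of the laminin that anchors epithelia through hemidesmosomes, and the 2 genes moved in opposite directions. LAMA3 (ENSG00000053747; chromosome 18, 23689443 to 23956222) was at 456, 475 and 455 CPM in NC replicates 1 to 3 and 329, 299 and 300.3 CPM in si-GLMP replicates 1 to 3. All 3 si-GLMP libraries lay well below the NC libraries, and the log2 fold change was -0.58 ± 0.06 (SE; edgeR's adjusted p = 1.97e-10). LAMB3 (ENSG00000196878; chromosome 1, 209614870 to 209652466) was at 754, 707 and 765 CPM in NC against 933, 865 and 866 CPM in si-GLMP. The groups did not overlap, in the opposite direction to LAMA3, with a log2 fold change of 0.26 ± 0.06 (edgeR's adjusted p = 0.00134).

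Ratios of transcripts within libraries were taken from the same CPM values, so they are no separate evidence. LAMA3 to LAMB3, per kb of exon, was 0.193, 0.215 and 0.190 in NC replicates 1 to 3, against 0.113, 0.111 and 0.111 in si-GLMP replicates 1 to 3. LAMA5 to LAMC1 was 1.03 ± 0.0837 and 1.17 ± 0.0569, and LAMB1 to LAMB2 was 3.55 ± 0.0542 and 2.73 ± 0.245 (mean ± SD, n = 3). None of these 3 ratios overlapped between the groups, and each had p = 0.10 in an exact two-sided permutation test, the smallest this design allows. For LAMA3 to LAMB3 and LAMB1 to LAMB2 that outcome was fixed by the levels, which were separate in opposite directions. LAMB1 to LAMC1, at 0.855 ± 0.0401 and 0.784 ± 0.0329, did overlap (exact two-sided permutation p = 0.20).

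**Figure D3:**
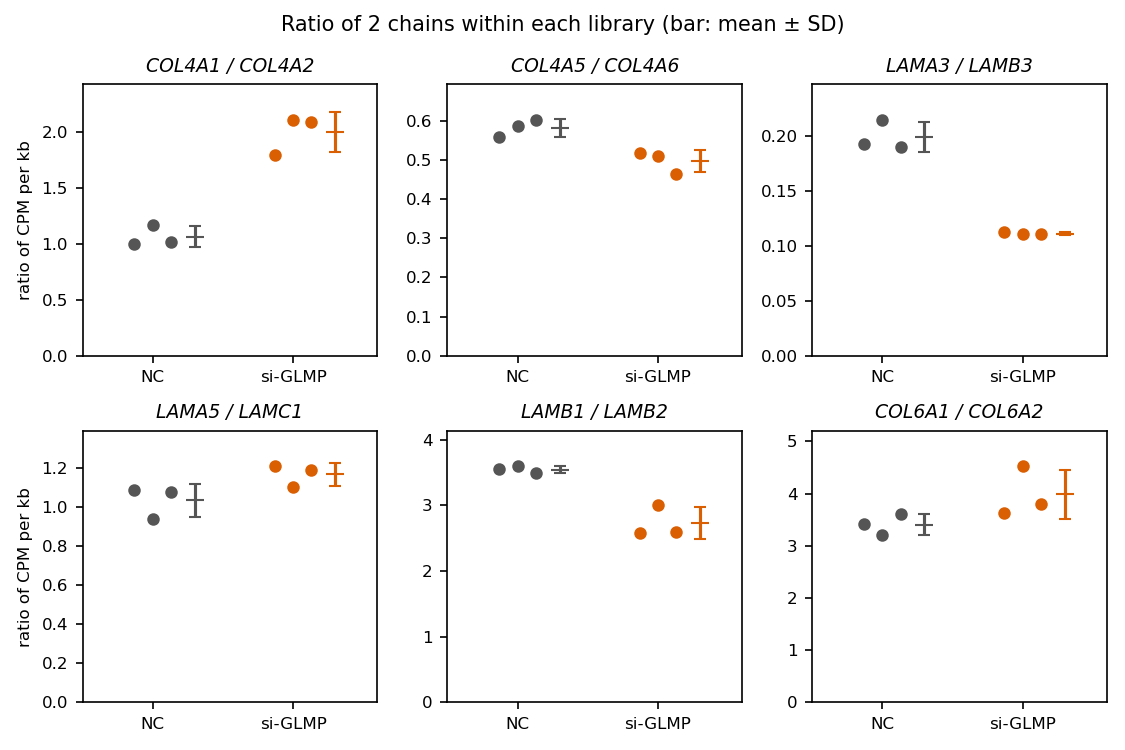
Ratio of the levels of 2 chains, in CPM per kb of exon, in each NC and si-GLMP library, with the mean ± SD beside the points. COL4A1 to COL4A2 goes from 1.07 to 2.0 and LAMA3 to LAMB3 from 0.199 to 0.111, and the groups are apart also for COL4A5 to COL4A6, LAMA5 to LAMC1, LAMB1 to LAMB2 and COL6A1 to COL6A2. LAMB1 to LAMC1, whose groups overlapped, is not drawn.

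Among the chains of the laminins with a broader range, those of laminin-511 and laminin-521, the changes were smaller. LAMA5 was at 763, 705 and 732 CPM in NC against 835, 769 and 831 CPM in si-GLMP, without overlap, and was not called (log2 fold change 0.15 ± 0.06, edgeR's adjusted p = 0.0844). It passed without si-GLMP replicate 2 (edgeR's adjusted p = 0.0265). LAMC1, the common gamma chain, was at 413, 443 and 400.1 CPM in NC against 407, 411 and 411 CPM in si-GLMP, with a log2 fold change of -0.03 ± 0.06 (edgeR's adjusted p = 0.771), and its groups overlapped.

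The beta chains LAMB1 and LAMB2 leaned opposite ways. LAMB2 went from 82.3 ± 1.01 to 96.8 ± 11.7 CPM (mean ± SD, n = 3; log2 fold change 0.23 ± 0.07, edgeR's adjusted p = 0.0161), a call that was lost without si-GLMP replicate 1 (adjusted p = 0.0778) or si-GLMP replicate 3 (0.165). LAMB1 was at 346 ± 5.74 and 311 ± 13 CPM, groups that did not overlap, and was not called by edgeR (log2 fold change -0.15 ± 0.06, adjusted p = 0.0675), while DESeq2 called it (adjusted p = 0.0397). LAMA4, an endothelial and mesenchymal chain, was low, with 12 to 23 counts per library, and was not called (edgeR's adjusted p = 0.421). Of the partner chains with a low level, LAMC3 fell (log2 fold change -0.56 ± 0.14, edgeR's adjusted p = 0.00169) and LAMA2 rose from 0.719 ± 0.268 to 1.59 ± 0.0504 CPM (edgeR's adjusted p = 0.00702), while LAMB4 (-0.58, adjusted p = 0.211) and COL6A3 (-0.67, adjusted p = 0.199) were not called.

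The linkers of the basement membrane were close to their control levels. AGRN, the heparan sulfate proteoglycan agrin, was at 639, 574 and 647 CPM in NC against 687, 624 and 650 CPM in si-GLMP, overlapping groups with a log2 fold change of 0.08 ± 0.06 (edgeR's adjusted p = 0.431). NID1, nidogen 1, was at 9.05 ± 1.45 and 9.28 ± 0.703 CPM (edgeR's adjusted p = 0.898). HSPG2, the proteoglycan perlecan, went from 193 ± 6.88 to 219 ± 6.47 CPM (mean ± SD, n = 3), a log2 fold change of 0.18 ± 0.06 (edgeR's adjusted p = 0.0370). Leaving out NC replicate 1 (adjusted p = 0.145) or 3 (0.177), or si-GLMP replicate 1 (0.0635) or 3 (0.129), ended the call, and 11.7% of the exonic length of HSPG2 overlaps LDLRAD2 on the other strand.

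Of the 4 fibrillar collagen genes in the set, COL1A1 was called higher and the others were not called or not tested. COL1A1 (ENSG00000108821), the main chain of type I collagen, had 127, 107 and 102 counts in NC replicates 1 to 3 and 218, 198 and 211 counts in si-GLMP replicates 1 to 3. Its level went from 5.38 ± 0.933 to 10.1 ± 0.672 CPM (mean ± SD, n = 3), without overlap, a log2 fold change of 0.91 ± 0.14 (edgeR's adjusted p = 1.59e-06). Its partner chain COL1A2 had only 27 counts summed over NC and 19 over si-GLMP. Of the 10 fibroblast markers, 3 could be tested and 0 were called, with log2 fold changes from -0.67 to 0.53. The source of the COL1A1 transcript was not tested. COL5A1, a regulator of fibril width, was the most abundant fibrillar chain per kb. It was at 104.8 ± 4.5 and 101 ± 10 CPM, and was not called (edgeR's adjusted p = 0.654). COL5A2 was near 0.9 CPM in both groups, with 10 to 27 counts per library (edgeR's adjusted p = 0.989).

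COL12A1 and COL13A1 fell, the first by a wide margin over the spread and the second narrowly. COL12A1, which decorates fibril surfaces, was at 137, 130.0 and 131 CPM in NC against 89.6, 81.7 and 92.3 CPM in si-GLMP. Every si-GLMP library was below every NC library, and the log2 fold change was -0.60 ± 0.07 (edgeR's adjusted p = 9.19e-10). COL13A1, a transmembrane collagen, had 23, 38 and 27 counts in NC and 20, 15 and 11 counts in si-GLMP. Its log2 fold change was -0.92 ± 0.34 (edgeR's adjusted p = 0.0412). The call was lost without NC replicate 2 (-0.67, adjusted p = 0.252), si-GLMP replicate 2 (0.110) or si-GLMP replicate 3 (0.199), as it was by DESeq2 (0.0970), by limma-voom (0.0535) and with no filter on low counts (0.0752).

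The microfibrillar collagen VI chains COL6A1 and COL6A2 were not called, at log2 fold changes of -0.05 and -0.25 (edgeR's adjusted p = 0.748 and 0.168). COL6A2 passed without si-GLMP replicate 1 (-0.43, adjusted p = 0.0166). COL16A1, a fibril-associated collagen, was at 11.6 ± 0.831 and 13.7 ± 0.767 CPM, without overlap, and was not called (edgeR's adjusted p = 0.131).

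Of the 7 matrix glycoproteins, 4 were called lower and 1 higher, where 11.3% of all genes tested were lower and 12.0% higher. FN1 (ENSG00000115414; chromosome 2, 215360440 to 215436172), which encodes fibronectin, the adhesive protein read by integrin receptors, drew the most reads of the 42 genes. It was at 1479, 1804 and 1505 CPM in NC replicates 1 to 3 and at 1198, 908 and 1203 CPM in si-GLMP replicates 1 to 3. The groups did not overlap, and the log2 fold change was -0.53 ± 0.12 (SE; edgeR's adjusted p = 0.0166). NC replicate 2 was the highest and si-GLMP replicate 2 the lowest library, and the log2 fold change was -0.44 without the first and -0.41 without the second, both called (adjusted p = 0.00961 and 0.000284). Leaving out si-GLMP replicate 1 ended the call (-0.60, edgeR's adjusted p = 0.0628).

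THBS1 (ENSG00000137801), thrombospondin 1, an activator of latent TGF-beta, was at 358, 382 and 379 CPM in NC against 264, 235 and 288 CPM in si-GLMP. All si-GLMP libraries were below all NC libraries, with a log2 fold change of -0.51 ± 0.07 (edgeR's adjusted p = 2.95e-08), and 7.6% of its exonic length overlaps other genes on the other strand. FBLN1, fibulin 1, a fibronectin-binding protein, went from 286 ± 18.1 to 228 ± 22.5 CPM (mean ± SD, n = 3; log2 fold change -0.33 ± 0.07, edgeR's adjusted p = 0.000198). SPARC, a collagen-binding matricellular protein, was low, with 51, 83 and 76 counts in NC and 49, 34 and 42 counts in si-GLMP, and had a log2 fold change of -0.73 ± 0.22 (edgeR's adjusted p = 0.0115). On the other strand, CLMAT3 overlaps 7.9% of the exonic length of SPARC. The SPARC call was lost without NC replicate 2 (-0.57, adjusted p = 0.104) or si-GLMP replicate 2 (-0.59, adjusted p = 0.0807).

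TNC, the hexameric glycoprotein tenascin C of remodelling tissue, went the other way. It was at 225, 268 and 229 CPM in NC against 327, 312 and 276 CPM in si-GLMP, without overlap, and rose by 0.34 ± 0.07 on the log2 scale (edgeR's adjusted p = 0.000165). TGFBI, an integrin-binding protein induced by TGF-beta, was at 322 ± 30.6 and 300.3 ± 18.5 CPM and was not called (edgeR's adjusted p = 0.306). FBN1, the microfibril protein fibrillin 1, stayed near 1.9 CPM in both groups (edgeR's adjusted p = 0.863).

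The crosslinking enzymes held the largest fall of the set. TGM2 (ENSG00000198959; chromosome 20, 38127387 to 38166578), the transglutaminase that links glutamine to lysine side chains and also binds fibronectin, was at 538, 571 and 520 CPM in NC replicates 1 to 3. In si-GLMP replicates 1 to 3 it was at 218, 115 and 130 CPM. No library came near the other group. Within si-GLMP, replicate 1 had the most TGM2, and it was the highest of its group in 25 of the 41 tested genes. The log2 fold change was -1.82 ± 0.29, and the mean level fell by 71.6% (edgeR's adjusted p = 0.0146). Without si-GLMP replicate 1 the log2 fold change was -2.15 ± 0.07 (edgeR's adjusted p = 2.78e-22), and without robust estimation in edgeR the adjusted p was 5.55e-13. The call was narrowly lost without NC replicate 1, 2 or 3 (adjusted p = 0.0542, 0.0572 and 0.0502) or si-GLMP replicate 3 (0.0633), at log2 fold changes between -1.85 and -1.70.

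LOXL1, a lysyl oxidase of elastic fibres, drew far fewer reads and fell to 0.49 of its NC level. It had 131, 153 and 141 counts in NC and 75, 60 and 72 counts in si-GLMP, without overlap, a log2 fold change of -1.02 ± 0.17 (edgeR's adjusted p = 3.03e-06). An antisense gene, LOXL1-AS1, overlaps 9.2% of its exonic length. LOXL2, the lysyl oxidase with the highest level per kb here, was at 120 ± 10.4 and 128 ± 10.7 CPM and was not called (edgeR's adjusted p = 0.351). LOX itself, the founding enzyme of the family, had 41 to 70 counts per library and was not called (edgeR's adjusted p = 0.947). Summed over the 4 enzymes, levels were 641 to 714 CPM in NC against 239 to 364 CPM in si-GLMP. TGM2 alone made up 520 to 571 CPM of the NC sums and 115 to 218 CPM of the si-GLMP sums. The lower sum is therefore that of TGM2 and not of the enzymes as a class.

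**Figure D4:**
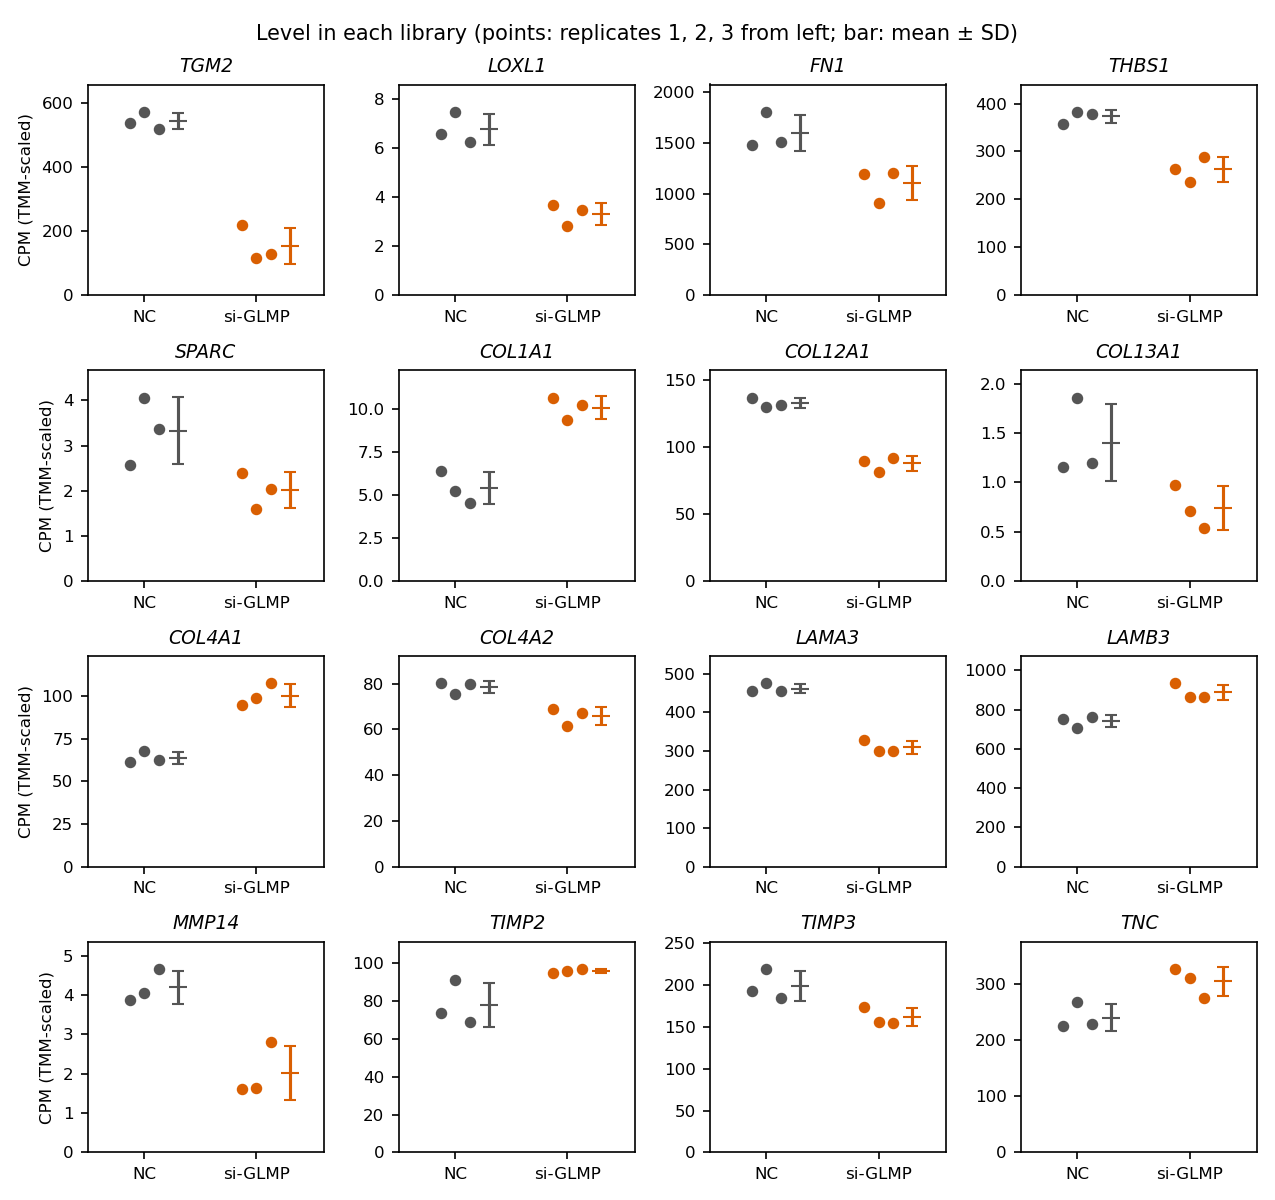
CPM, scaled by TMM, of 16 matrix genes in each NC and si-GLMP library, with the mean ± SD beside the 3 points of a group and each axis starting at 0. TGM2 goes from between 520 and 571 CPM to between 115 and 218 CPM, and COL4A1 and COL4A2 separate in opposite directions.

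Metalloproteinase genes of the set were lowly expressed and their inhibitors were not. MMP14, the membrane-bound collagenase that activates pro-MMP2, had 77, 83 and 105 counts in NC and 33, 35 and 58 counts in si-GLMP. The groups did not overlap, and the log2 fold change was -1.05 ± 0.21 (edgeR's adjusted p = 0.000132). MMP2, a gelatinase, had 9 to 23 counts per library and was not called (edgeR's adjusted p = 0.795).

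The inhibitors went both ways. TIMP2, which also takes part in MMP2 activation, was at 73.9, 91.0 and 69.1 CPM in NC against 95.1, 95.8 and 96.9 CPM in si-GLMP, a log2 fold change of 0.30 ± 0.08 (edgeR's adjusted p = 0.00287). It was not called without NC replicate 3 (0.22, adjusted p = 0.0687). TIMP1, a soluble inhibitor, rose by 0.23 ± 0.08 (edgeR's adjusted p = 0.0343), a call lost on leaving out NC replicate 1 (adjusted p = 0.109) or 3 (0.121) or si-GLMP replicate 1 (0.262). TIMP3, the inhibitor that stays bound to the matrix, went from 199 ± 17.7 to 161 ± 11.0 CPM (mean ± SD, n = 3), a log2 fold change of -0.30 ± 0.07 (edgeR's adjusted p = 0.000662). Per kb of exon, the ratio of TIMP2 to MMP14 was 14.9 ± 3.01 in NC and 40 ± 11 in si-GLMP, without overlap. The ratio of TIMP1 to MMP14 was 26.2 ± 2.84 and 68.3 ± 23.2, and that of TIMP3 to MMP14 was 46.4 ± 7.13 and 83.2 ± 26.8. Groups did not overlap in either, and each of the 3 ratios had an exact two-sided permutation p of 0.10, the smallest possible. In the ratios with TIMP1 and TIMP2 that outcome was fixed by the levels, which were separate and opposite to MMP14.

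Genes that fold, modify and process collagen were mostly higher where they were called. Of 27 tested, 12 were higher and 3 lower (55.6% called, against 23.3% of all genes tested, 12.0% higher and 11.3% lower), with a median log2 fold change of 0.20. SERPINH1, the collagen chaperone HSP47, went from 366 ± 9.99 to 550.4 ± 26.9 CPM (mean ± SD, n = 3), a log2 fold change of 0.59 ± 0.06 (edgeR's adjusted p = 9.51e-11). PLOD2, which hydroxylates telopeptide lysines ahead of crosslinking, went from 116 ± 2.55 to 201 ± 32.3 CPM (0.80 ± 0.08, edgeR's adjusted p = 1.18e-09). MIA2, a cargo receptor relative at endoplasmic reticulum exit sites, rose by 0.54 (edgeR's adjusted p = 2.38e-06), while P3H2, a prolyl 3-hydroxylase of basement membrane collagens, had -0.74 (edgeR's adjusted p = 4.83e-08). The prolyl 4-hydroxylase subunits P4HA1, P4HA2 and P4HB, named after their values were seen, had 0.34, 0.33 and 0.26 (edgeR's adjusted p = 0.00247, 0.00355 and 0.00145), and the P4HA1 call was lost without NC replicate 3 (0.0754). The other 2 lower genes, BMP1 and TLL2, also named afterwards, encode procollagen C-proteinases and had -0.22 and -0.44 (edgeR's adjusted p = 0.0348 and 0.00292). The BMP1 call was lost on leaving out NC replicate 1 (0.178) or 3 (0.178), or si-GLMP replicate 2 (0.0948) or 3 (0.0846).

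**Figure D5:**
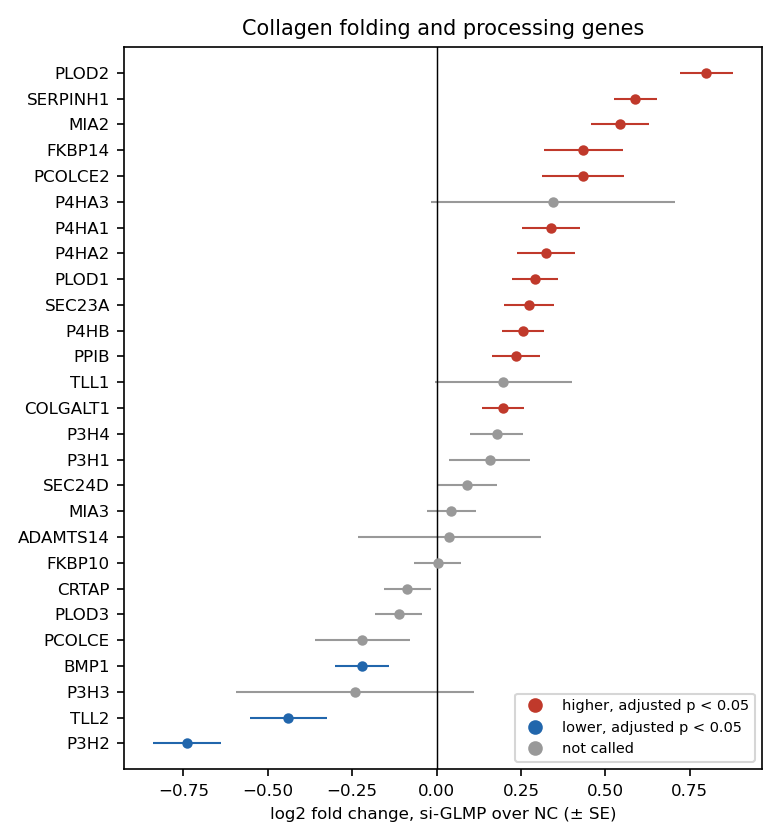
Log2 fold change (horizontal axis, si-GLMP over NC) of the 27 tested collagen folding and processing genes, with the standard error as a bar and the colour giving the call. The values run from -0.74 for P3H2 to 0.80 for PLOD2, and 20 of the 27 are above 0.

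Other matrix genes were also called in both directions. Of 28 further glycoproteins and proteoglycans tested, 7 were lower and 1 higher, with a median of -0.14. The share called, 28.6%, was near the 23.3% over all genes tested. The lower ones with the smallest p-values were LTBP2, a fibrillin-associated protein (-0.57, edgeR's adjusted p = 5.78e-10), SPOCK1, a testican proteoglycan (-0.77, adjusted p = 4.45e-09), EFEMP1, fibulin 3 (-0.53, adjusted p = 1.49e-07), and ECM1, a secreted glycoprotein (-0.52, adjusted p = 1.79e-06). The higher one was LTBP3, a partner of latent TGF-beta (0.25, adjusted p = 0.00400), which was not called without si-GLMP replicate 3 (0.0532). Of 20 further metalloproteinases and inhibitors, 5 were higher and 2 lower, 35.0% called. The interstitial collagenase MMP1 went from 55.0 ± 4.93 to 108.0 ± 17.5 CPM (log2 fold change 0.97, edgeR's adjusted p = 3.06e-08), the stromelysins MMP3 and MMP10 rose by 1.62 and 0.56 (adjusted p = 8.55e-07 and 0.000295), and the membrane-type enzyme MMP15 rose by 0.51 (adjusted p = 1.32e-06). MMP1, MMP3 and MMP10 thus moved opposite to MMP14. The other 3 called genes of that list, chosen after their values were seen, were low. ADAMTS15 had -1.24 (edgeR's adjusted p = 0.00217), MMP17 had -0.93 (0.0405) and ADAMTS17 had 0.44 (0.0405). MMP17 was lost in 5 of the 6 fits that left out a library, without NC replicate 1 or 2 or any si-GLMP library, at 0.0551 to 0.207. ADAMTS17 was lost in all 6, at 0.0636 to 0.0934.

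Further collagens and matrix receptors were called in both directions. Of 9 further collagens tested, 2 were higher and 2 lower, 44.4% called against 23.3% over all genes tested. COL27A1, a fibrillar collagen of cartilage, had -0.69 (edgeR's adjusted p = 1.66e-06) and COL26A1 0.69 (adjusted p = 0.00213). The low COL11A2 had -0.87 (adjusted p = 0.0127, lost at 0.112 without si-GLMP replicate 1) and COL2A1, below 1 CPM, had 1.3 (adjusted p = 0.0353, lost in 5 of 6 fits that left out a library, at 0.0688 to 0.157). Of 3 further crosslinkers, only PXDN, the peroxidasin that links collagen IV by sulfilimine bonds, was called (0.23, adjusted p = 0.00596), and it was lost without NC replicate 1 (0.0556) or si-GLMP replicate 3 (0.0513). Of 17 matrix receptors, 6 were higher and 2 lower, 47.1% called. ITGA5, the fibronectin receptor subunit, rose by 0.71 (edgeR's adjusted p = 3.03e-12) and the syndecans SDC4 and SDC1 by 0.48 and 0.25 (adjusted p = 4.89e-08 and 0.00260), whereas the hyaluronan receptor CD44 had -0.26 (adjusted p = 0.00171, and 0.0558 without si-GLMP replicate 3). The collagen receptor subunit ITGA2 had -0.19 (adjusted p = 0.0225), lost without NC replicate 1 or 3 or si-GLMP replicate 1 or 3 at 0.0727 to 0.205.

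The libraries of a group were not alike over these genes. In 25 of the 41 tested genes si-GLMP replicate 2 was the lowest of its group, and in 25 si-GLMP replicate 1 was the highest, while NC replicate 2 was the highest NC library in 24. Of the 13 genes called lower, 9 had their lowest si-GLMP value in replicate 2, as did 5 of the 9 called higher. Without NC replicate 2, 9 genes were higher and 10 lower, and without si-GLMP replicate 2, 10 were higher and 10 lower. The part of these library differences in the results was not tested beyond these counts.

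Promoter windows were available in RefSeq (GRCh38.p14) for 33 of the 42 genes. In the 250 bases before a start, searched on both strands, the TEAD letters GGAATG were present in 4 of 40 windows, 10%, against 11.9% of 35116 windows of all genes, and lay upstream of COL12A1, FBN1, SPARC and THBS1. The AP-1 letters TGANTCA were present in 5.0% against 6.57%, upstream of LAMA3 and LAMB3. A CCAAT box was present in 30.0% against 32.0%, and a GC box in 75.0% against 42.6%. These are letter matches and describe the windows only.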

How the data were processed

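Libraries of mRNA from 6 PC9OR samples were compared, 3 NC and 3 si-GLMP, grouped and numbered from the sample titles. The authors deposited raw read counts per gene without normalization. The submitters' processing notes name HISAT2 and GRCh38, with no version. Counter, annotation release and strand use are not stated in any source used, so reads from opposite-strand genes that overlap cannot be separated. Each count column carries the title of 1 sample, and 0 columns were left unmatched.

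The fit used edgeR 4.0.16 (R 4.3.3). Genes kept by filterByExpr (minimum count 10) were TMM-scaled and tested for group with robust quasi-likelihood F tests. Benjamini-Hochberg adjustment covered 15900 genes, with a threshold of 0.05. Standard errors are the log2 fold change over the square root of F. Levels are TMM-scaled CPM, and per kb of exon with GENCODE 29 (GRCh38). Exonic length is the union of all annotated exons of a gene, 14.7 kb for COL4A1 and 19.3 kb for COL4A2. The order between genes and the size of ratios per kb depend on it, while comparisons of NC with si-GLMP do not. The fit was tested on simulated data in which all genes had the same scatter beyond counting error. That setting does not cover genes with a wide spread between libraries, such as TGM2.

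The genes, their roles and the other lists were chosen with earlier results of these data known. Values in every library were planned for genes called with an absolute log2 fold change of at least 0.5 and for the 6 with the highest CPM. Each tested partner chain, and up to 4 called genes with the smallest adjusted p of each other list, were to be named; 1 of these results is not reported here. Alternatives were other scaling (RLE, upper quartile), an unfiltered fit, a minimum of 1 CPM in at least 3 libraries, leaving out each library, a replicate block, non-robust estimation, DESeq2 1.42.0 and limma-voom (limma 3.58.1). Promoter windows come from RefSeq (GRCh38.p14). The floor of 3 counts covers counting error only.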

Additional observations from a re-analysis of the deposited data

How the results depend on the processing

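The counts called over the 42 matrix genes, over the other matrix lists together and over all genes moved by at most 1.5 times under the 14 alternatives; counts within single roles, of 1 or 2 genes, moved by more where a gene named in the report lost its call. Of the matrix genes, between 6 and 10 were higher and between 10 and 14 lower over the 6 fits that left out a library. Over 14 alternatives and 41 genes, 571 values were obtained, since 3 genes were below the filter of 1 CPM in 3 libraries. Of these, 528 kept their side of the threshold, 35 lost a call, 8 gained one, and 0 called values changed sign; 14 uncalled values close to 0 did. RLE scaling and edgeR without robust estimation changed 0 calls. The replicate number as a block gave 10 higher and 11 lower matrix genes. FN1 (adjusted p = 0.0984) and TGM2 (0.0584) lost their calls with the block and COL4A5 gained one (0.0455), while no other matrix gene's call changed. Same-numbered libraries deviated together only weakly (r = 0.04, 0.03 and 0.00 for replicates 1, 2 and 3). The labels do not say whether the numbers pair the samples, and correlations this small cannot settle it. With no filter, FN1 had an adjusted p of 9.16e-14, and COL18A1 (0.0516), COL13A1 (0.0752), HSPG2 (0.0768) and TIMP1 (0.0507) were lost. DESeq2 lost COL18A1 (0.0518), COL13A1 (0.0970) and TIMP1 (0.0588). Depth limits COL13A1, COL5A2, LAMA4 and MMP2, with under 40 counts in each library.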
